A study of Caenorhabditis elegans with 6 samples.

Results

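The genes *pmp-1* to *pmp-5* encode the ATP-binding cassette (ABC) transporters of subfamily D in *Caenorhabditis elegans*, and all 5 of 5 were listed in both deposited expression tables, among 17399 genes listed in either. Members were taken by gene symbol alone, and the level of a gene was the sum of its listed transcripts, 7 for the 5 genes in the first table and 8 in the second. VK2-treated worms were wild-type N2 adults kept for 7 days at 20 °C with 0.1 µM vitamin K2 (VK2), and control worms were N2 adults kept in the same way without VK2. Both groups started as synchronized young adults, were moved daily to fresh plates to leave the progeny behind, and were sequenced as whole-body total RNA, 3 libraries each. The first table held VK2 replicate 1 and control replicate 1, and the second held replicates 2 and 3 of both groups, so that VK2 was compared with control within a table and all 3 same-numbered pairs lay within a table. The labels do not state whether the replicates were separate cultures, and the p-values measure the spread between these libraries.

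Most subfamily D transporters known from animals sit in the peroxisomal membrane and bring fatty acids, mostly as acyl-CoA, into the organelle, where beta-oxidation shortens them, but a human member of the subfamily is lysosomal and works in the handling of vitamin B12, and the libraries do not show where the worm proteins act. Each protein carries a single membrane domain and a single ATP-binding domain and works as a dimer. In the worm, peroxisomal beta-oxidation shortens very long and branched fatty acids and the side chains of ascarosides, the secreted signals of this animal, and the intestine is a main site of it. *pmp-1* and *pmp-2* resemble human ABCD3, and *pmp-3* is in common use as a reference gene for real-time PCR in worms. The study followed *pmp-1* further by real-time PCR and in a mutant, and the question here is how this gene and its closest relatives stood in the sequencing libraries.

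The values were FPKM (fragments mapped to a transcript, scaled to its length and to the mapped fragments of its library), which correct for transcript length, so levels can be compared between genes. No gene of the family passed the test between VK2-treated and control worms. On the log2(FPKM + 1) scale the fitted differences, VK2 minus control, ran between -0.10 for *pmp-1* and 0.26 for *pmp-4*, and 4 of 5 lay above 0, as did 55.1% of all 14191 genes tested. The count was 3 of 5 without control replicate 3 and 5 of 5 without VK2 replicate 2. None of the 5 reached an adjusted p below 0.05 (limma, Benjamini-Hochberg over all genes), and neither did any other gene (0.0% called). At an unadjusted p below 0.05 the count was 0 of 5, beside 507 genes of all tested (3.57%). Within the family, *pmp-1* was higher with VK2 in the first table and lower in the second, and a transcript of *pmp-5* that keeps an intron took a larger share of that gene with VK2 in every pair. The difference of *pmp-1* between the tables did not pass its test, and the share of the transcript is a description.

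Depth could not be recovered from the files, since the low FPKM values kept no whole-fragment steps. Transcript FPKM summed to 654910 in VK2 replicate 1 and 686279 in control replicate 1 of the first table, and to between 369349 and 396004 in the 4 libraries of the second, so a level is read only within its own table. Control replicate 3 stood apart, with a standard deviation over genes of 0.695 (log2) from control replicate 2, against 0.292 between the VK2 libraries of the second table. Its yolk protein genes *vit-2* and *vit-6* summed to 664 FPKM, against 3206 to 4320 FPKM in the other 3 libraries of the second table. The other 8 intestinal markers summed to 2605 FPKM, against 2069 to 2543 FPKM. Of those 2605 FPKM, 209.8 came from *mtl-2* alone, which stood at 4.82 to 7.41 FPKM in the other 3 libraries. The 10 oocyte and germline markers summed to 663 FPKM in control replicate 3, against 1416 to 1791 FPKM. The 10 sperm markers summed to 381, 277 and 270 FPKM in VK2 replicates 1 to 3 and to 199, 256 and 148 FPKM in control replicates 1 to 3, higher with VK2 in every pair. In the first table the hypodermal, muscle and neuronal markers (10 each) summed to 2817, 1838 and 411 FPKM in VK2 replicate 1. In control replicate 1 they summed to 2424, 1550 and 424 FPKM. In the second table the hypodermal sum was 2175 FPKM in control replicate 3, against 1437 to 1684 FPKM in the other libraries. The neuronal sum was 408 FPKM in control replicate 3, against 347 to 357 FPKM in the others. The muscle sum was 2235 FPKM in control replicate 3, against 1981 to 2427 FPKM in the others. No marker of any list was at 0 in any library. In whole worms fewer cells of a type and less RNA per cell cannot be told apart, and the part of these shifts in the results below was not tested.

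*pmp-1* and *pmp-2*, the members that resemble ABCD3, lie next to each other on chromosome II, on the minus strand and 285 bases apart (WBcel235, Ensembl release 115). *pmp-1* (WBGene00004058) was listed at positions 6880701 to 6883754 and has 9 exons and 665 codons. *pmp-2* (WBGene00004059) was listed at 6884049 to 6887805 and has 9 exons and 661 codons. Each was listed with a single transcript. No source used here says how reads that could fit both genes were assigned. The primers designed in the study to measure *pmp-1* by real-time PCR are shown because they define what that assay reads, 20 bases each, 5′ to 3′.
pmp-1 forward: atcgttggatgggtagcttg
pmp-1 reverse: ttccgacaatttcagcatca

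*pmp-1* stood at 21.1 FPKM in VK2 replicate 1 and 10.2 FPKM in control replicate 1. In the second table it stood at 10.4 and 14.2 FPKM in VK2 replicates 2 and 3, against 15.3 and 24.8 FPKM in control replicates 2 and 3. The VK2 library was thus the higher of the first table, whereas in the second table both VK2 libraries lay below both controls. As FPKM ratios the pairs gave 2.06, 0.684 and 0.573, VK2 over control. On the log2 scale the differences were 0.98, -0.51 and -0.76, and the fitted difference over all libraries was -0.10 (SE 0.37, unadjusted p = 0.797, adjusted p = 1.00, limma), a fold of 0.934 with a 95% interval of 0.512 to 1.70. An increase or a decrease by more than 1.5 times therefore both lay inside the interval. The direction of the fitted difference turned to 0.17 without VK2 replicate 2 and to 0.25 without control replicate 3.

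The opposite direction of *pmp-1* in the 2 tables was tested as an interaction of VK2 with table. The effect in the first table exceeded that in the second by 1.61 on the log2 scale (SE 0.54, unadjusted p = 0.0254), with an adjusted p of 1.00 over all genes (limma), so it did not pass. No gene passed this test (0.0%), and 257 genes (1.81%) had an unadjusted p below 0.05. The first table held only 1 pair and had no replicate of its own, and its spread was taken to be that of the second table. Without control replicate 2 the difference was 1.94, in a fit that left a single control in the second table, so no p-value is given. For the other members the interaction was between -0.05 for *pmp-5* and 0.42 for *pmp-4*, with unadjusted p-values of 0.348 to 0.992. Table and VK2 replicate 1 cannot be told apart here, since the first table held no other VK2 library.

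*pmp-2* was the only member that was higher with VK2 in every pair. It stood at 23.4 FPKM in VK2 replicate 1 and 18.9 FPKM in control replicate 1, and at 11.3 and 12.5 FPKM in VK2 replicates 2 and 3 against 11.04 and 10.91 FPKM in control replicates 2 and 3. Its VK2 libraries lay above the controls in both tables, as they did for 6.83% of all genes, and 10.8% of all genes were higher with VK2 in every pair. The step was small, with log2 differences of 0.29, 0.03 and 0.18 and a fitted difference of 0.17 (SE 0.15, unadjusted p = 0.311, limma). The interval of the fitted difference was -0.20 to 0.53, which leaves out a change by 1.5 times (0.585) in either direction. This holds for the main fit only. In the second table alone the fitted difference was 0.11 with a larger SE of 0.21, and a rise by 1.5 times is not left out there. The sperm marker sum was higher with VK2 in every pair as well, and its part in the *pmp-2* values was not tested.

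Next to each other on the chromosome, *pmp-1* and *pmp-2* did not keep a fixed ratio. *pmp-1* per *pmp-2* was 0.903 in VK2 replicate 1 and 0.541 in control replicate 1. In the second table the ratio was 0.921 and 1.14 in VK2 replicates 2 and 3, against 1.38 and 2.27 in control replicates 2 and 3. The ratio was higher with VK2 in the first table and lower in the second, and its range came mostly from *pmp-1*, as *pmp-2* varied between 10.9 and 12.5 FPKM in the second table and *pmp-1* between 10.4 and 24.8 FPKM. Of the other gene neighbours, *C44B7.7*, which follows *pmp-1* on its strand, had a fitted difference of -0.21 (SE 0.17), and *acer-1*, on the other side of *pmp-2*, had -0.06 (SE 0.23).

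**Figure D1:**
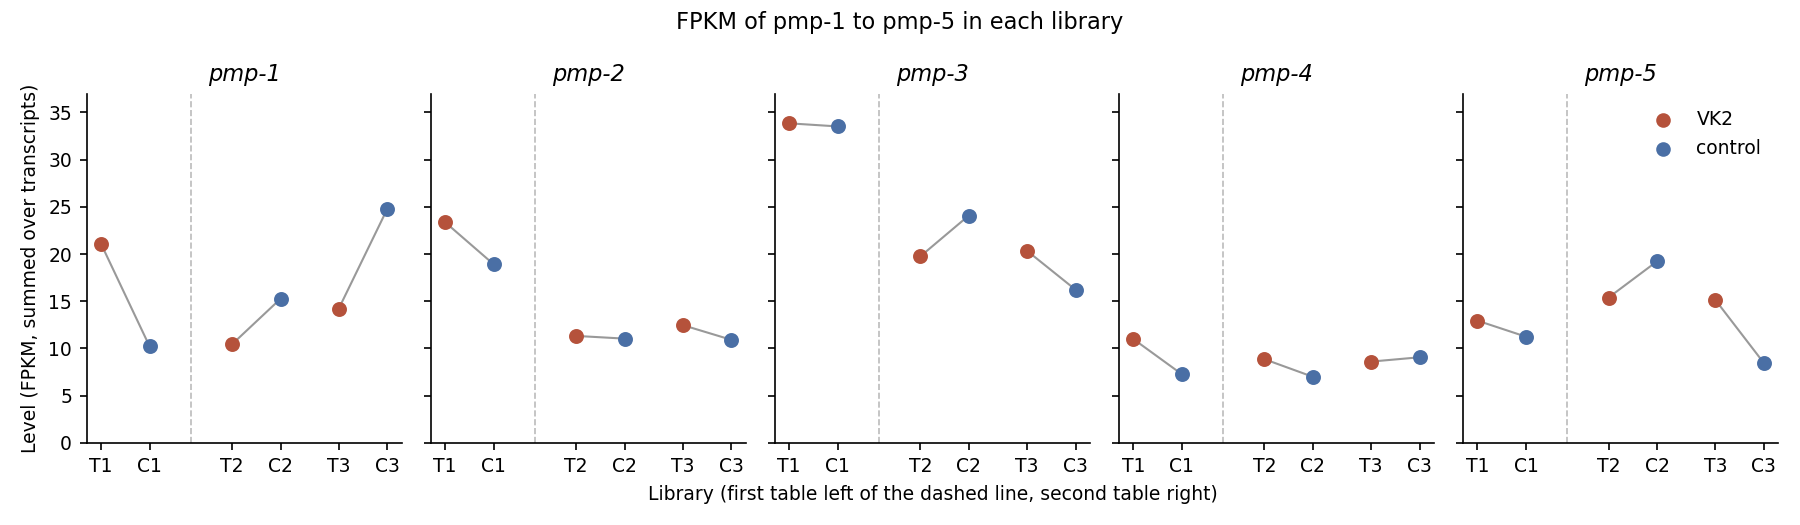
FPKM of *pmp-1* to *pmp-5* in each library, with each VK2 library (T) left of its same-numbered control (C), to which it is joined, and a dashed line between the tables. *pmp-1* is higher with VK2 in the first table (21.1 against 10.2 FPKM) and lower in both pairs of the second, while *pmp-2* keeps to 10.9 to 12.5 FPKM in the second table.

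*pmp-4* (WBGene00004061) lies on chromosome IV at 17402463 to 17405630, on the minus strand, and has 12 exons and 734 codons. Its 3′ end overlaps the gene *T02D1.4* of the other strand by 8 bases in Ensembl release 115. The kit kept strand, but no source used here says whether the counting did. *pmp-4* stood at 10.99 FPKM in VK2 replicate 1 and 7.26 FPKM in control replicate 1, at 8.86 and 8.60 FPKM in VK2 replicates 2 and 3, and at 6.99 and 9.06 FPKM in control replicates 2 and 3. VK2 was the higher library in 2 of 3 pairs, and the VK2 values of the second table lay between its controls. The first pair had an FPKM ratio of 1.51, and the log2 differences, which the added 1 FPKM shrinks, were 0.54, 0.30 and -0.07. The fitted difference of 0.26 (SE 0.19, 95% interval -0.19 to 0.70, unadjusted p = 0.214) was the highest of the family and stayed above 0 when each library was left out (0.12 to 0.39).

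*pmp-3* (WBGene00004060) lies on chromosome V at 14646739 to 14653464, on the plus strand, and with its end in Ensembl release 115, which runs past the listed end, it overlaps *slc-25A29* of the other strand by 5 bases. As a gene it stood at 33.8 FPKM in VK2 replicate 1 and 33.5 FPKM in control replicate 1, at 19.7 and 20.3 FPKM in VK2 replicates 2 and 3, and at 24.1 and 16.2 FPKM in control replicates 2 and 3. The first pair was level, and both VK2 libraries of the second table lay between the controls. The log2 differences were 0.01, -0.27 and 0.31, and the fitted difference was 0.02 (SE 0.18, 95% interval -0.41 to 0.45, unadjusted p = 0.930). Without control replicate 3 it was -0.14. Between the libraries of a pair its FPKM ratios were 1.01, 0.820 and 1.25, VK2 over control. The reference gene of the real-time PCR in the study, *cdc-42*, stood at 202, 101 and 97.9 FPKM in VK2 replicates 1 to 3 and at 240.0, 108 and 105 FPKM in control replicates 1 to 3. It was lower with VK2 in every pair, by a fitted -0.15 (SE 0.13, unadjusted p = 0.273).

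*pmp-5* (WBGene00004062) lies on chromosome V at 6662191 to 6665813, on the minus strand. It stood at 12.9 FPKM in VK2 replicate 1 and 11.2 FPKM in control replicate 1, at 15.4 and 15.1 FPKM in VK2 replicates 2 and 3, and at 19.2 and 8.46 FPKM in control replicates 2 and 3. In the second table the VK2 libraries were close to each other, and the controls lay on either side of them. The log2 differences were 0.19, -0.30 and 0.77, and the fitted difference was 0.22 (SE 0.28, 95% interval -0.45 to 0.89, unadjusted p = 0.465). It was -0.10 without control replicate 3 and 0.53 without control replicate 2.

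**Figure D2:**
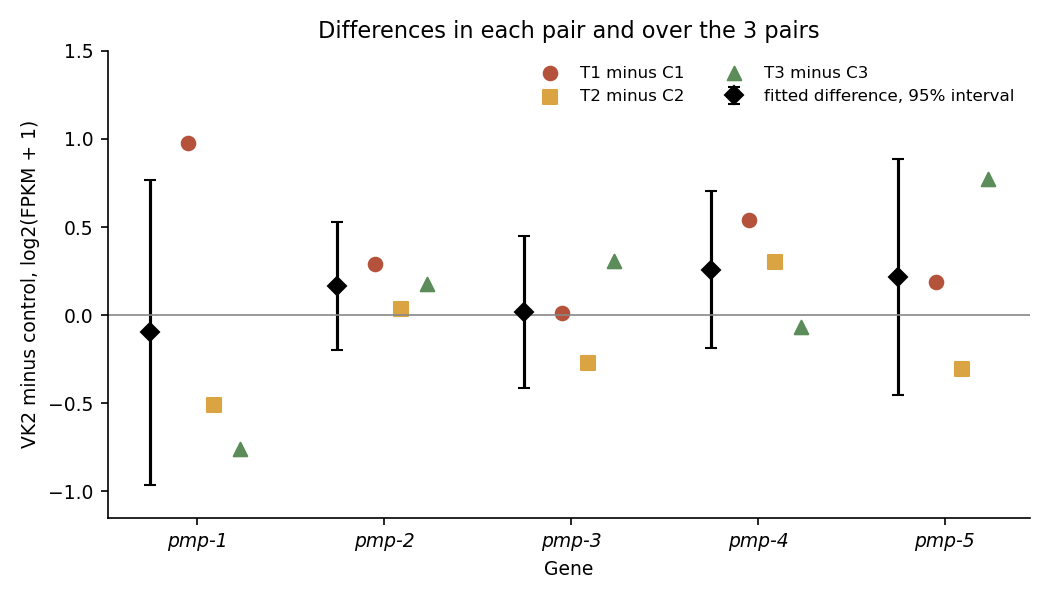
Difference of each member, VK2 minus control on the log2(FPKM + 1) scale, for the 3 pairs (coloured points) and as fitted over all 6 libraries (black diamonds, with 95% intervals as bars). All 5 intervals hold 0, and the points of *pmp-1* lie at 0.98, -0.51 and -0.76.

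Pair by pair, 1 member was higher by at least 1.5 times on the log2(FPKM + 1) scale in the first pair (*pmp-1*), beside 9.48% of all genes. None reached this in either direction in the second pair, where 4.02% of genes were higher and 2.58% lower. In the third pair *pmp-5* was higher and *pmp-1* lower by at least 1.5 times, beside 14.8% and 10.9% of all genes. By the fitted difference 0 of 5 members were higher by at least 1.5 times and 0 of 5 lower, beside 3.33% and 1.68% of all genes. The members lay above 0 in 5, 2 and 3 of 5 cases in the first, the second and the third pair, where the shares of all genes were 51.2%, 37.9% and 59.3%. *pmp-1* was the only member higher in the first pair and lower in both others, a pattern that 11.5% of all genes showed.

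In order of level, *pmp-3* was the highest of the family in 5 of 6 libraries and *pmp-4* the lowest in 5 of 6. Control replicate 3 was the exception for both, with *pmp-1* highest at 24.8 FPKM and *pmp-5* lowest at 8.46 FPKM. Between these ends *pmp-1*, *pmp-2* and *pmp-5* had no order beyond their spread, each with a mean rank of 3. *pmp-1* was above *pmp-2* in 3 of 6 libraries, *pmp-5* above *pmp-2* in 3 of 6, and *pmp-5* above *pmp-1* in 4 of 6. Among all genes tested the members were of middle level, between the 35.9th percentile (*pmp-4*, control replicate 1) and the 77.9th (*pmp-1*, control replicate 3). The 5 genes together summed to 102 FPKM in VK2 replicate 1 and 81.2 FPKM in control replicate 1, to 65.7 and 70.8 FPKM in VK2 replicates 2 and 3, and to 76.6 and 69.4 FPKM in control replicates 2 and 3. *pmp-1* made up 20.6% of that sum in VK2 replicate 1 and 12.6% in control replicate 1, and 15.9% and 20.1% in VK2 replicates 2 and 3 against 19.9% and 35.7% in control replicates 2 and 3.

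Transcripts were described for *pmp-3* and *pmp-5*, the members listed with more than a single transcript. For *pmp-5*, transcript T10H9.5a has 13 exons and 598 codons, and T10H9.5c has 12 exons and 565 codons. The 2 transcripts share 1868 exonic bases in Ensembl release 115, with 2 bases found only in T10H9.5a and 483 only in T10H9.5c. Those 483 bases are the last intron of T10H9.5a, at positions 6662382 to 6662864 of chromosome V, which T10H9.5c keeps inside its exon 12 of 817 bases. The coding sequence of T10H9.5c runs 21 bases into that intron and stops there, and the rest of the intron is 3′ untranslated. The deposited tables list T10H9.5c with its 3′ end at 6662234, against 6662193 in Ensembl release 115. As listed it therefore stops short of the annotated exon 12, though past the intron. The transcript T10H9.5b was listed in the second table only and had no entry in the annotation used here.

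**Figure D3:**
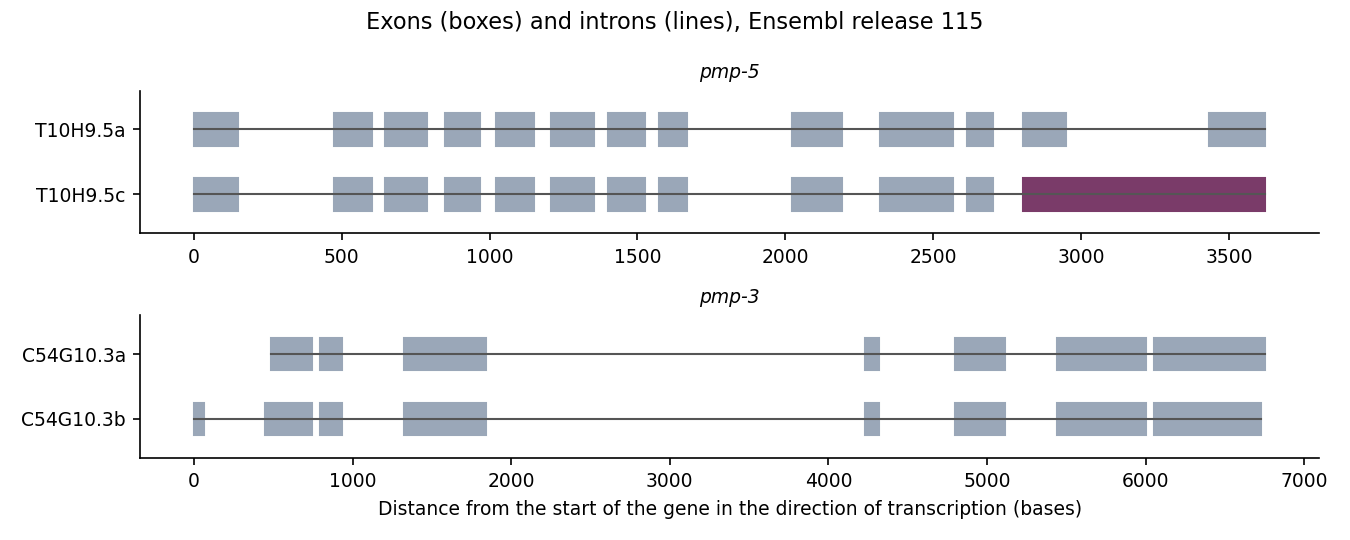
Exons (boxes) and introns (lines) of the annotated transcripts of *pmp-5* and *pmp-3*, drawn 5′ to 3′ against distance in bases from the start of the gene. The purple exon of T10H9.5c (817 bases) holds the last intron of T10H9.5a (483 bases), and C54G10.3a of *pmp-3* lacks the first exon of C54G10.3b.

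T10H9.5c stood at 7.89 FPKM in VK2 replicate 1 and 1.85 FPKM in control replicate 1. In the second table it stood at 3.13 and 4.59 FPKM in VK2 replicates 2 and 3, against 0.554 and 0.177 FPKM in control replicates 2 and 3. Every VK2 library lay above every control of its table, as for 7.34% of the 19967 transcripts tested, and the FPKM ratios of the pairs were 4.26, 5.66 and 25.9. This transcript was picked out after its values were seen. Its fitted difference was 1.77 on the log2 scale (SE 0.24, unadjusted p = 0.000557), and with an adjusted p of 0.503 over all transcripts (limma) it did not pass. By unadjusted p it ranked 21 of 19967, where 652 transcripts (3.27%) had a p below 0.05, none passed (0.0%), and the smallest adjusted p of any transcript was 0.261. Only 0.576% of transcripts were higher by at least 1.5 times in every pair, T10H9.5c among them. With each library left out the fitted difference was 1.62 to 1.87, and a pseudocount of 0.1 or 5 FPKM in place of 1 gave 2.81 or 0.78.

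T10H9.5a, the spliced transcript, stood at 5.05 FPKM in VK2 replicate 1 and 9.39 FPKM in control replicate 1, at 10.4 and 10.4 FPKM in VK2 replicates 2 and 3, and at 18.6 and 8.24 FPKM in control replicates 2 and 3. It was lower with VK2 in the first and second pair and higher in the third (log2 differences -0.78, -0.77 and 0.30), with a fitted difference of -0.42 (SE 0.33, unadjusted p = 0.259). T10H9.5b stood at 1.81 and 0.197 FPKM in VK2 replicates 2 and 3 and at 0.115 and 0.0404 FPKM in control replicates 2 and 3. As a share of *pmp-5*, T10H9.5c made up 61.0% in VK2 replicate 1 and 16.5% in control replicate 1. In the second table the share was 20.4% and 30.3% in VK2 replicates 2 and 3, against 2.88% and 2.09% in control replicates 2 and 3. The mean share was 37.2% with VK2 and 7.14% in control, a difference of 30.1 percentage points. No p-value is given for this share, since the transcript had been picked out for its values. The 12 arrangements of the labels within tables also allow no p below 0.167. The differences of T10H9.5a and T10H9.5c had opposite signs in the first and the second pair, and the total of *pmp-5* did not show them. No source used here says how reads were split between these 2 transcripts, which share most of their exonic bases, and both values are estimates from the same reads. The sum of the sperm markers was likewise higher with VK2 in every pair (381, 277 and 270 FPKM with VK2, 199, 256 and 148 FPKM in control), and its part in the share of T10H9.5c was not tested.

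Transcripts that keep an intron were also described as a class. Of transcripts with an exon that holds an intron of another transcript of the same gene, 369 were tested, and their median fitted difference was 0.02, against 0.03 for 6642 other transcripts of genes with several. Of the 369, 5 were higher by at least 1.5 times in every pair (1.36%), T10H9.5c included, and 0 were lower. By the fitted difference 10.6% were higher and 6.78% lower by at least 1.5 times, where the shares of all transcripts were 7.17% and 5.49%.

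For *pmp-3*, transcript C54G10.3b has 8 exons and 688 codons, and C54G10.3a has 7 exons and 660 codons and lacks the first exon of C54G10.3b. In Ensembl release 115 they share 2558 exonic bases, with 98 found only in C54G10.3b, at the 5′ end, and 28 only in C54G10.3a, at the 3′ end. The tables list other ends for C54G10.3a (14647188 to 14653457), which leave no such bases at its 3′ end. How reads were split between these transcripts is not stated in any source used here. The values of both are estimates from the same reads. C54G10.3a stood at 6.48 FPKM in VK2 replicate 1 and 12.1 FPKM in control replicate 1, at 2.47 and 1.13 FPKM in VK2 replicates 2 and 3, and at 3.29 and 3.13 FPKM in control replicates 2 and 3. Every VK2 library lay below every control of its table, as for 6.55% of all transcripts. The fitted difference was -0.69 (SE 0.26, unadjusted p = 0.0412, adjusted p = 1.00, limma), and it lay between -0.91 and -0.50 with each library left out. C54G10.3b stood at 27.4 FPKM in VK2 replicate 1 and 21.4 FPKM in control replicate 1, at 17.3 and 19.2 FPKM in VK2 replicates 2 and 3, and at 20.8 and 13.1 FPKM in control replicates 2 and 3, with a fitted difference of 0.20 (SE 0.22, unadjusted p = 0.390). The share of *pmp-3* made up by C54G10.3a was 19.2%, 12.5% and 5.58% in VK2 replicates 1 to 3 and 36.0%, 13.7% and 19.3% in control replicates 1 to 3. The mean difference was -10.6 percentage points. No p-value is given for this difference either, since the 12 arrangements of the labels within tables allow none below 0.167.

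**Figure D4:**
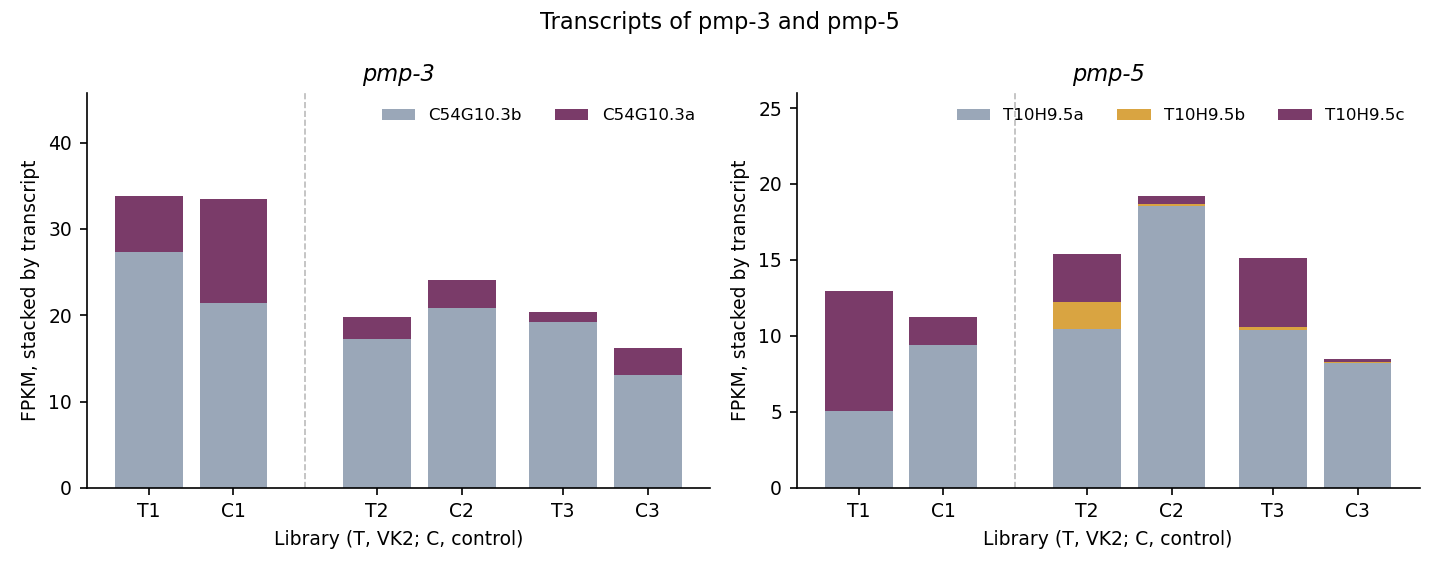
FPKM of *pmp-3* and *pmp-5* in the 6 libraries, stacked by transcript, with each VK2 library (T) left of its control (C) and a dashed line between the tables. T10H9.5c is higher with VK2 in all 3 pairs (7.89 against 1.85 FPKM in the first), and C54G10.3a is lower with VK2 in all 3.

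The members did not vary as a block. Over the 6 libraries, each centred on the mean of its table, *pmp-3* and *pmp-5* had the highest Pearson r of any 2 members (0.957), followed by *pmp-2* and *pmp-4* (0.745) and *pmp-1* and *pmp-4* (0.576), and *pmp-3* and *pmp-4* the lowest (-0.478). Adjacent *pmp-1* and *pmp-2* had an r of 0.356. These values are descriptions over 6 libraries that include the VK2 and table contrasts, and control replicate 3 was the highest library for *pmp-1* in the second table and the lowest for *pmp-3* and *pmp-5*. Among 5681 named genes with a mean of at least 5 FPKM, the patterns most like *pmp-1* were *cal-5* (r = 0.998), *pcp-3* (0.995) and *bcat-1* (0.995). *bcat-1* encodes a branched-chain amino acid aminotransferase. Those most like *pmp-2* were *pyc-1*, which encodes pyruvate carboxylase (0.987), *glb-33* (0.980) and *gpb-2* (0.976). For *pmp-3* they were *ufbp-1*, *nstp-5* and the actin gene *act-2* (0.999 each), and for *pmp-4* *nspc-20* (0.985), *flp-27* (0.982) and *rgs-4* (0.977). For *pmp-5* they were the germline RNA helicase gene *cgh-1*, the Mediator subunit gene *mdt-8* and *spe-39* (1.00 each). With 5681 genes searched over only 6 libraries, the highest r values can be high by selection alone, and no p-value is attached.

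Peroxisomal genes around the transporters were described by lists of known function. Beside the members, 29 peroxisomal genes were tested, and 24 of them lay above 0 by the fitted difference. Of all genes 55.1% did, and this share stands beside the counts of the lists below as well. The median was 0.15 for the 29 genes and 0.02 for all genes. The median of all genes itself moved to 0.08 without control replicate 2 and to -0.04 without control replicate 3. None of the 29 passed the test or reached 1.5 times in either direction, and with each library left out the count above 0 was 20 to 25. It was lowest without replicate 1 of either group, which leaves the second table alone, with a median of 0.09, and it was 23 without control replicate 3, where 5954 of the 14191 genes tested lay above 0. The pairs differed, with 25, 14 and 25 of 29 above 0 in the first, the second and the third pair. Of all genes 51.2%, 37.9% and 59.3% lay above 0 in these pairs. The 10 enzymes of peroxisomal beta-oxidation, which act on the imported acyl-CoA, all had a fitted difference above 0 (median 0.29), between 0.10 for *dhs-28* (SE 0.15), a dehydrogenase of ascaroside synthesis, and 0.56 for the acyl-CoA oxidase gene *acox-3* (SE 0.21, unadjusted p = 0.0359). Their median was 0.55, -0.16 and 0.49 in the 3 pairs. Without replicate 1 of either group 8 of 10 lay above 0, with a median of 0.17, and with any other library left out all 10 did. In the second pair 3 of the 10 lay above 0, beside 37.9% of all genes. *pmp-1*, *pmp-3* and *pmp-5* were lower with VK2 in that pair as well, and a link was not tested.

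The 11 peroxins, which build the organelle and bring in its proteins, had 9 above 0 (median 0.12), from *prx-12* at 0.49 (SE 0.21) to *prx-19* at -0.13 (SE 0.15). Their median ran from 0.06 without VK2 replicate 3 (8 above 0) to 0.21 without control replicate 2 (9 above 0), with 0.08 (7 above 0) without replicate 1 of either group and 0.19 (9 above 0) without VK2 replicate 2. *prx-19* is the counterpart of the human import receptor for peroxisomal membrane proteins. Of 5 other peroxisomal enzymes 2 lay above 0 (median -0.01), with the D-amino acid oxidase gene *daao-1* at 0.54 (SE 0.23) and *agxt-1* at -0.12 (SE 0.15), and the median of the 5 ran from -0.08 without VK2 replicate 3 to 0.24 without replicate 1 of either group. The 3 ether lipid genes lay at or above 0, from *ads-1* at 0.00 to *fard-1*, a fatty acyl reductase gene, at 0.27 (SE 0.16). Their median was 0.15, and 0.08 with 2 of 3 above 0 without replicate 1 of either group. The acyl-CoA synthetases make acyl-CoA, and this list was not limited to those that serve peroxisomes. Of them 18 of 20 lay above 0 (median 0.22), from *acs-20* at -0.22 (SE 0.16) to *acs-2* at 1.00 (SE 0.27, unadjusted p = 0.00738, adjusted p = 1.00, limma). By the fitted difference 2 of the 20 were higher by at least 1.5 times, beside 3.33% of all genes. The count above 0 was 14 of 20 (median 0.16) without replicate 1 of either group. Without control replicate 2 the median was 0.36, where that of all genes was 0.08.

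Among the other ABC transporters, 19 of 45 tested lay above 0, beside 55.1% of all genes, with a median of -0.03, and none passed the test. With each library left out the count was 15 to 24 of 45, with the lowest (median -0.11) without replicate 1 of either group and the highest (median 0.02) without control replicate 3. The *haf* list held *haf* genes, *hmt-1* and *abtm-1*. Their products are built like the members from a single membrane and a single ATP-binding domain. Of them 0 of 9 lay above 0 (median -0.11), from *haf-7* at -0.38 (SE 0.31) to *haf-9* at -0.01 (SE 0.18). With each library left out the count was 1 or 2 of 9, and the median was -0.21 without replicate 1 of either group. The P-glycoproteins, exporters of the multidrug type, had 3 of 11 above 0 (median -0.11), 8 of 11 (median 0.03) without control replicate 3, and 2 of 11 (median -0.30) without replicate 1 of either group. *pgp-11* was the highest of them at 0.10 (SE 0.21) and *pgp-8* the lowest at -0.75 (SE 0.81), the only ABC gene past 1.5 times, with 11.2 FPKM in control replicate 3 and at most 0.680 FPKM in every other library.

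The multidrug resistance proteins had 5 of 9 above 0 (median 0.01), from *mrp-2* at -0.50 (SE 0.25) to *mrp-4* at 0.26 (SE 0.34), and between 2 of 9 without replicate 1 of either group and 7 of 9 without replicate 2 of either group. Of family A 3 of 5 lay above 0 (median 0.00), from *abt-2* at -0.11 (SE 0.20) to *abt-5* at 0.44 (SE 0.23). The *wht* genes of family G had 6 of 7 above 0 (median 0.25), from *wht-1* at -0.00 to *wht-4* at 0.54 (SE 0.24). Families E and F, which have no membrane domain and act on the ribosome, had 2 of 4 above 0, between -0.07 for *abcf-3* and 0.06 for *abcf-2*. The pattern of *pmp-1*, higher in the first pair and lower in both others, was shared by 14 of the 45 other ABC transporters. Of these, 4 were on the *haf* list (*haf-1*, *haf-4*, *hmt-1* and *abtm-1*) and 6 were *pgp* genes. Of all genes 11.5% showed it, as did 1 of the 29 other peroxisomal genes. Whether these lists differ from each other was not tested.

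**Figure D5:**
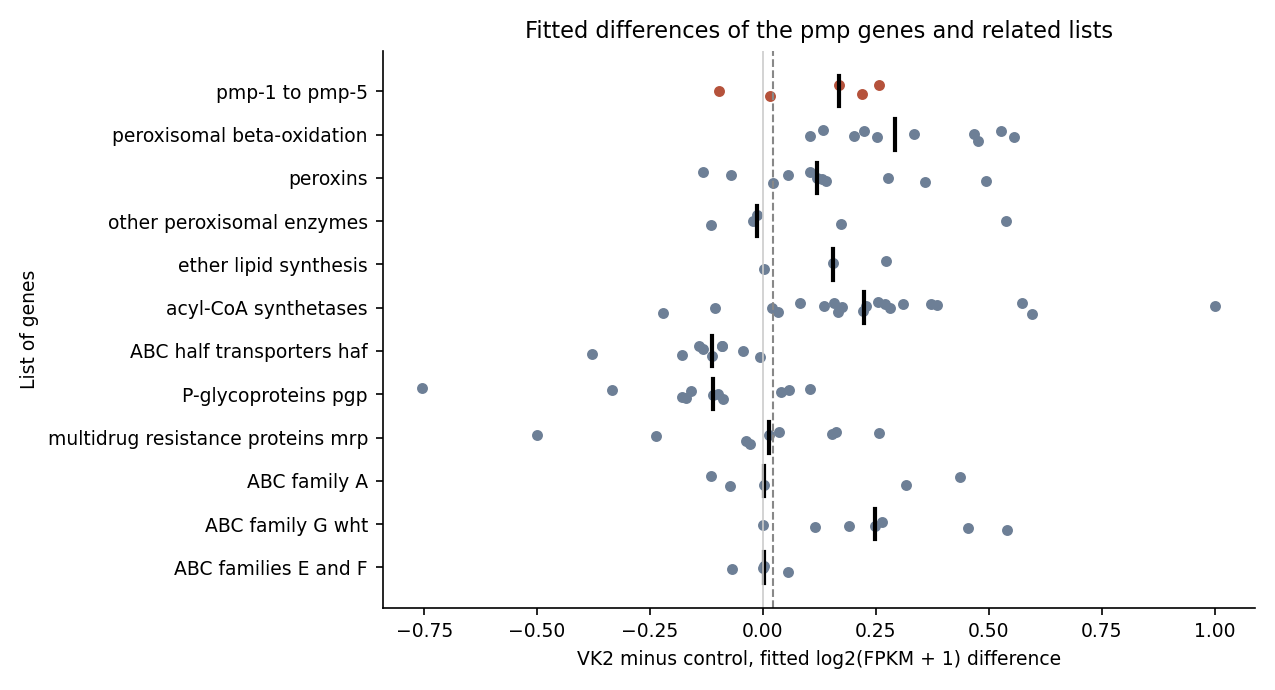
Fitted difference, VK2 minus control on the log2(FPKM + 1) scale, of the 5 members and of each list of related genes, with a point per gene, a black bar at each list's median and a dashed line at the median of all genes tested (0.02). All 10 beta-oxidation genes lie above 0, all 9 genes of the *haf* list below, and *pmp-1* is the only member below.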

How the data were processed

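RNA-seq libraries (stranded kit, paired ends) were processed by the authors, and the deposited values are FPKM per transcript, in 2 tables. Per the study's methods, reads were aligned to WBcel235 and quantified with HISAT2 (2.1.0 per the labels), and Ballgown was used to compute FPKM. The labels also name cutadapt, StringTie and STAR 2.5.2b, with no role. In the first table every transcript was protein coding and reached 0.5 FPKM in a library. In the second, 1129 transcripts were of other classes and 331 stayed below 0.5 FPKM. In 49 lines of the first table the identifiers were joined and were split by pattern. Depth is unknown.

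FPKM were summed per gene. Genes found in both tables and averaging 1 FPKM or more were fitted with limma 3.58.1 (R 4.3.3) on log2(FPKM + 1), with VK2 and table as terms, an intensity trend, two-sided tests and Benjamini-Hochberg adjustment over 14191 genes. The fitted difference equals the mean of the 3 pair differences, and understates changes of low genes. Transcripts were fitted in the same way, a step added after the data were seen. "At least 1.5 times" refers to this scale. The script was tested on simulated data. Named were all members, *cdc-42*, the 3 genes most like each member, and the highest and lowest gene of each list. The members and lists were chosen with earlier results of these data known. Same-numbered libraries correlated in their deviations from the group means (r = 0.881, 0.556 and 0.543), but differently numbered libraries of the second table did so too (0.608 and 0.613). Within the second table alone, r was -0.111.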

Additional observations from a re-analysis of the deposited data

Results flagged for a closer look

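*pmp-1* was higher in VK2-treated than in control worms in the first table and lower in both pairs of the second. The VK2 effect in the first table minus that in the second was 1.61 on the log2 scale (SE 0.54, unadjusted p = 0.0254, adjusted p = 1.00, limma). The first table holds 1 pair, so table and replicate 1 cannot be told apart.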

How the results depend on the processing

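No member passed an adjusted p below 0.05 for VK2 against control under any setting run. With each library left out the fitted difference was -0.63 to 0.25 for *pmp-1* (0.17 without VK2 replicate 2 and 0.25 without control replicate 3), 0.11 to 0.22 for *pmp-2*, -0.14 to 0.17 for *pmp-3* (-0.14 without control replicate 3), 0.12 to 0.39 for *pmp-4* and -0.10 to 0.53 for *pmp-5* (-0.10 without control replicate 3). By its highest transcript alone, *pmp-5* was at -0.42, since that transcript is T10H9.5a.

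The VK2 effect in the first table minus that in the second was refitted with each second-table library left out (added after the data were seen). Each of these fits left a single library in a group of the second table, so no p-value is given. The difference was 1.28 to 1.94 for *pmp-1* (1.94 without control replicate 2) and 0.12 to 0.25 for *pmp-2*. It was -0.28 to 0.27 for *pmp-3* (0.02 without VK2 replicate 3 and 0.27 without control replicate 3). It was 0.25 to 0.59 for *pmp-4* and -0.59 to 0.50 for *pmp-5* (0.50 without control replicate 3). For *pmp-3* it was 0.000579 at a pseudocount of 5, 0.0592 with upper quartile scaling and 0.0448 with quantile normalization, and for *pmp-5* 0.0124 with upper quartile scaling, all near 0 as was the value reported. The cause was not tested.

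Genes higher by at least 1.5 times numbered 473, and 979 at a pseudocount of 0.1, 123 at 5, 261 with a mean of at least 5 FPKM, and 355 to 1097 with each library left out (1097 without control replicate 2). Genes lower numbered 238, and 426, 90 and 144 under the same settings, 498 in the second table alone, and 97 to 671 with each library left out (671 without control replicate 2 and 97 without control replicate 3). Genes called at an adjusted p below 0.05 numbered 0, and 0 to 2 with each library left out (1 without VK2 replicate 2 and 2 without control replicate 3).

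In a fit blocked on replicate number, without the table term, the fitted difference of each member was the same, with unadjusted p-values of 0.777, 0.378, 0.931, 0.256 and 0.391 for *pmp-1* to *pmp-5*, and 0 genes were called (limma). The block changed no call. With numbers 2 and 3 crossed between the groups of the second table, 0 genes were called. Limits are the single pair of the first table, the unknown depth, and the unstated way in which reads were split between transcripts that overlap.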

Other observations

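Of the marker lists, 9 of 9 tested sperm markers were higher with VK2 in every pair, beside 10.8% of all genes. Their median fitted difference was 0.67, from *gsp-4* at 0.53 to *msd-1* at 0.78, and 0 passed the adjusted test. Of all genes 55.1% had a fitted difference above 0, and 51.2%, 37.9% and 59.3% lay above 0 in the 3 pairs. For the oocyte and germline list 9 of 10 lay above 0, from *glh-1* at -0.06 to *cpg-1* at 0.35, but the count was 6, 1 and 9 of 10 in the 3 pairs, with medians of 0.02, -0.35 and 1.24, the last of these against control replicate 3. For intestine 8 of 10 lay above 0, with *vit-2* at 0.81 and *mtl-2* at -1.70. *mtl-2* stood at 2.61, 7.41 and 7.23 FPKM in VK2 replicates 1 to 3 and at 5.95, 4.82 and 209.8 FPKM in control replicates 1 to 3. For hypodermis 3 of 10 lay above 0 (*col-119* 0.10, *rol-6* -0.50), for muscle 8 of 10 (*myo-1* 0.17, *mup-2* -0.22) and for neurons 3 of 10 (*sng-1* 0.15, *unc-31* -0.33).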
